A study of Mus musculus with 8 samples.

Results

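The genes described here are the nuclear-encoded subunits of the mitochondrial respiratory chain and ATP synthase, followed in the epidermis of mouse back skin. They were taken by symbol: every listed gene beginning with Ndufa, Ndufb, Ndufc, Ndufs, Ndufv, Uqcr or Atp5, or with Cox followed by 4, 5, 6, 7 or 8, together with Sdha, Sdhb, Sdhc and Sdhd, leaving out pseudogenes marked -ps and the Ndufaf assembly factors. This gave 84 of 16902 listed genes, and 81 of them passed a filter on low values (a mean of at least 10 normalised counts in either treatment) that left 14614 genes. The 81 comprised 38 genes named for complex I, 4 for complex II, 8 for complex III, 14 for complex IV and 17 for complex V. The 3 that did not pass were Ndufa11b and the muscle isoforms Cox6a2 and Cox8b. RNA sequencing was done on CD1 mice in 4 groups of 2 libraries, each group with 1 female and 1 male. Without treatment, Ovol1 +/- controls were set against libraries labelled Ovol1 -/-. Under imiquimod (IMQ, an agonist of Toll-like receptors that inflames mouse skin), Ovol1 +/+ controls were set against libraries labelled Ovol1 -/-. Ovol1 encodes a zinc-finger protein that regulates transcription in skin. The sources used here do not give age, dose or days of treatment, nor the design of the Ovol1 allele and whether it acts in the whole body. Because the control genotype differs between the treatments, IMQ and the loss of 1 Ovol1 copy in the controls cannot be told apart. With 1 female and 1 male per group, p-values reflect only how far these libraries differ among themselves.

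The respiratory chain sits in the inner mitochondrial membrane. Complexes I and II pass electrons from NADH and succinate to ubiquinone, complex III passes them to cytochrome c, and complex IV passes them to oxygen, while ATP synthase, called complex V, uses the proton gradient built by complexes I, III and IV. Most subunits are encoded in the nucleus and the rest in mitochondrial DNA (mtDNA), so the assembled complexes need products of both genomes. Keratinocytes make ATP by glycolysis as well as by respiration, and some complex IV subunits exist as a widely expressed form and a form enriched in muscle, lung or testis.

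The libraries held 28.6 to 43.1 M reads. All 10 keratinocyte markers examined had reads in every library, with a summed level of 849700 to 1605000 normalised counts. The tables give 1 value per gene and Ovol1 RNA was not lower in the libraries labelled knockout, so the genotype labels could not be checked on these values, and the libraries are called labelled knockouts. The female IMQ control library stood apart: it was the highest of the 8 libraries for all 12 skeletal muscle markers (summed 4173, against 316 to 886 in the other 7 libraries), all 8 endothelial markers (1032 against 111 to 221) and all 5 melanocyte markers (2499 against 521 to 811). Of the muscle markers, Myh2 and Mb were at 0 in at least 1 library. Summed dermal fibroblast markers were 17740 to 79820 in the 4 male libraries and 2137 to 7600 in the 4 female ones, and under IMQ they were lower in the labelled knockouts in both sexes. All 8 fibroblast markers had reads in every library. In bulk tissue, fewer cells of a type and less RNA per cell cannot be told apart.

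At rest, levels within a complex spanned a wide range. Levels are compared between the 81 tested genes as normalised counts per kb of principal transcript, averaged over the 4 untreated libraries. In complex III, Uqcrh, the hinge protein, stood at 12990 per kb and Uqcrq, a small subunit near the ubiquinone site, at 1230. In complex V, Atp5b, which encodes the catalytic beta subunit, reached 12420 per kb. The lowest there was Atp5g1, 1 of 3 genes for the proton-carrying c subunit, at 483 per kb of a 4715-base transcript whose length lowers the value. Ndufa4 was the highest of the genes named for complex I at 10240 per kb, although its product is now known as a component of complex IV. Ndufa13 was the lowest tested one at 19.7. It had only 8 to 35 reads per library, so its level is uncertain, and the cause of so few reads was not tested. Complex IV ran from 7904 per kb for Cox6b1 down to 9.99 for Cox4i2, and the untested Ndufa11b and Cox6a2 were lower still, at 6.74 and 2.17. Complex II was narrower, from 1946 for Sdhb, the iron-sulfur subunit, to 615 for Sdhc, a membrane anchor. The principal transcripts of Sdhc and Uqcrq, of 3171 and 1521 bases, are also long for their complexes, which lowers their values per kb. Of the 83 members found in the annotation, 44 had no 50-base window in common with another gene, while Atp5g2, Atp5l, Atp5o, Cox7c, Atp5h and Uqcrb had over 40% of windows in common with others, so their values are less certain.

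At rest, labelled knockouts were compared with controls to see whether these genes depend on Ovol1 in uninflamed epidermis. No member passed the test between untreated labelled knockouts and controls, and the complexes stayed close to the controls. The test was limma on log2 of the normalised count plus 1, with Benjamini-Hochberg adjustment over all 14614 genes and a threshold of 0.05. It called 0 genes in either direction over the whole table, a background of 0%, so 0 members is no result about the members. At an unadjusted p under 0.05 there was 1 member higher and 0 lower, beside 2.79% and 1.67% of all genes. With sex as a block, limma also called 0 members (0.0411% of all genes higher and 0.0137% lower), as did DESeq2 (0.438% and 0.171%) and edgeR (0% in both directions). Of the 81 members, 27 had a positive difference (33.3%, beside 49.5% of all genes). Their median log2 difference was -0.027, from 0.034 in the female pair to -0.097 in the male pair, and the median over all genes was -0.002. Both labelled knockout libraries lay above both controls for 4 members and below them for 14 (4.94% and 17.3%, beside 17.4% and 16.4% of all genes).

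The member with an unadjusted p under 0.05 was Ndufa1, an X-linked accessory subunit of complex I. Its normalised counts were 984 (female) and 1161 (male) in the untreated controls and 1374 and 1517 in the untreated labelled knockouts. The groups did not overlap, the log2 difference was 0.43 and the limma adjusted p was 0.868. Under IMQ Ndufa1 stood at 1206 and 1316 in controls and 1515 and 1741 in labelled knockouts, again without overlap (log2 difference 0.37, limma adjusted p = 0.192). Ndufa1 was therefore higher in the labelled knockout of each sex in both treatments, and neither difference passed the threshold. At rest the genes with the lowest unadjusted p in complexes III, IV and V were lower in labelled knockouts. Uqcrb, of complex III, read 1982 and 2321 in controls and 1743 and 1987 in labelled knockouts (log2 difference -0.21), with overlap. Atp5h, of complex V, read 4735 and 5365 against 4561 and 4535 (log2 difference -0.15), without overlap. Cox4i2, of complex IV, is described below. Sdhb had the lowest unadjusted p of complex II at rest, and was higher. It read 1830 and 2113 in controls and 2311 and 2634 in labelled knockouts, a log2 difference of 0.33 (limma adjusted p = 1.00).

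Under IMQ, most members were higher in the labelled knockouts than in the IMQ controls, each by a small amount. The log2 difference was positive for 72 of 81 members (88.9%, beside 48.7% of all tested genes), with a median of 0.156 against -0.013 over all genes. Between the 2 females the median was 0.189 and between the 2 males 0.156. In both pairs 58 members were positive and 7 negative, beside 4796 and 5055 of all 14614 tested genes. All 5 complexes shared this direction, with medians of 0.146 for complex I, 0.162 for complex II, 0.202 for complex III, 0.155 for complex IV and 0.178 for complex V. No single member passed the limma test, which called 0.157% of all genes higher and 0.281% lower. EdgeR on recovered reads also called 0 members, beside 0.144% and 0.151% of all genes. DESeq2 on those reads called 2 members higher and 1 lower (4% and 4.5% of all genes), and limma with sex as a block called 0 higher and 1 lower (0.588% and 1.86%). At an unadjusted p under 0.05, 14 members were higher and 3 lower (17.3% and 3.7%, beside 10% and 11.9% of all genes). Both labelled knockout libraries lay above both controls for 37 members and below them for 5 (45.7% and 6.17%, beside 26.6% and 26.4% of all genes).

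The size of the shift moved when 1 library was left out, which also leaves unequal sexes in the groups compared. Without the female IMQ control, the library with the muscle, endothelial and melanocyte RNA, 57 of 81 members were positive (beside 49.6% of all genes). The median of the members was then 0.068. Without the male labelled knockout 51 were positive (beside 48.9% of all genes) and the median was 0.102. The median was 0.242 without the male control and 0.241 without the female labelled knockout. Marker sums also differed between the IMQ genotypes. The 8 sebocyte markers summed to 26280 and 23760 in controls and 50880 and 47250 in labelled knockouts, with 6 of 8 positive. That sum does not stand for each marker. Their median difference was -0.66 between the females and 1.04 between the males, and 3 of 8 were positive in both pairs. The 10 keratinocyte markers summed to 1096000 and 1232000 against 849700 and 994300, with 4 of 10 positive and 3 lower at an unadjusted p under 0.05. The part of these cell types in the shift was not tested. Other housekeeping lists gave values of similar size: the median was 0.262 for 77 mitochondrial ribosomal protein genes (68 positive) and 0.239 for 38 proteasome genes (33 positive), while 83 cytosolic ribosomal protein genes had a median of 0.001. The members were not tested against these lists.

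**Figure D1:**
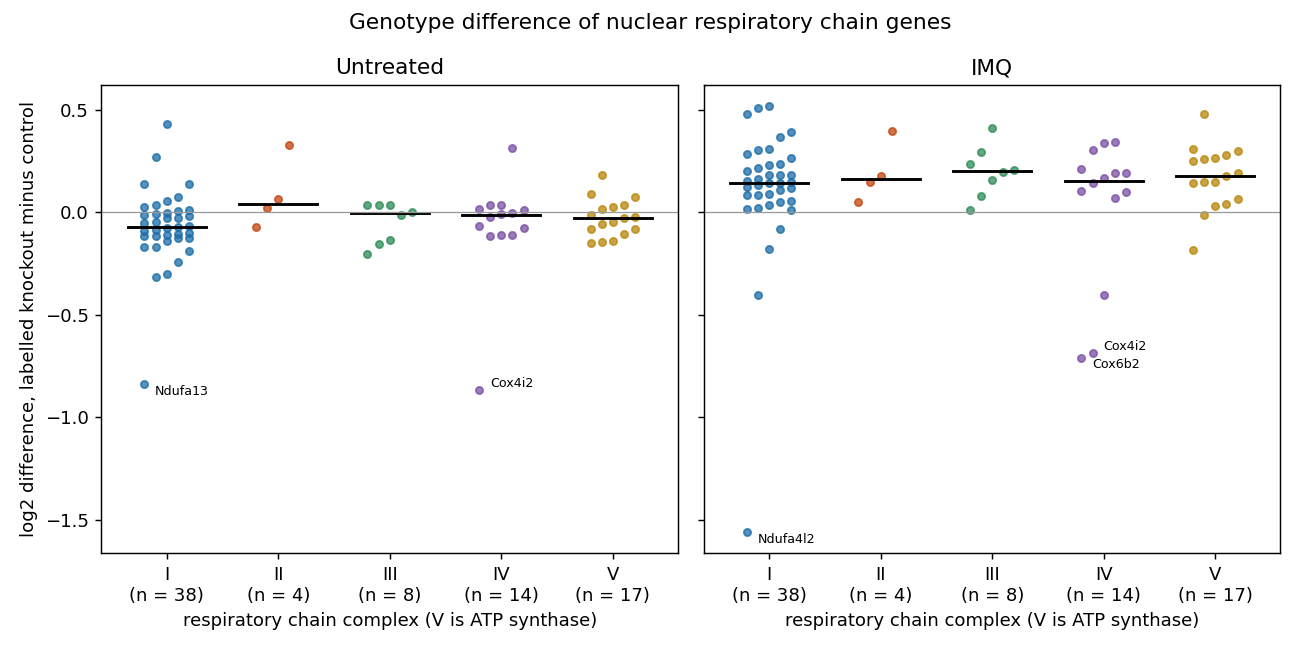
Log2 difference of labelled knockout minus control for each of the 81 tested members (points), by complex, in untreated (left) and IMQ-treated epidermis (right); black bars are medians of the complex. Under IMQ all 5 medians lie above 0 (0.146 to 0.202) and Ndufa4l2 lies far below the rest at -1.56, while at rest the medians lie near 0.

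Among complex I genes, Ndufs1 had the lowest unadjusted p on the higher side under IMQ. It encodes an iron-sulfur core subunit that carries electrons from NADH. It read 1918 and 2076 in the IMQ controls and 2929 and 2650 in the IMQ labelled knockouts, so the groups stood apart. The log2 difference was 0.48 (SE 0.11, limma adjusted p = 0.0878), and DESeq2 on recovered reads gave an adjusted p of 0.00598. All 7 core subunits of complex I were positive (median 0.219), as were 27 of the 31 other genes named for complex I (median 0.143). Those 31 include Ndufa4 and Ndufa4l2. Ndufb6, an accessory subunit of the membrane arm, read 530 and 673 in controls and 822 and 891 in labelled knockouts (log2 difference 0.52, limma adjusted p = 0.137). Both sexes showed the same direction for Ndufs1 and Ndufb6.

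In complex II, Sdhd, a membrane anchor of succinate dehydrogenase, read 1638 and 1683 in IMQ controls and 2333 and 2051 in IMQ labelled knockouts. The groups did not overlap, with a log2 difference of 0.40 (limma adjusted p = 0.130, DESeq2 adjusted p = 0.0468). Sdha, the flavoprotein subunit, stood at 2946 and 2850 against 3380 and 3172, a log2 difference of 0.18 (limma adjusted p = 0.338). Sdhb overlapped, at 1786 and 1622 against 1689 and 2104, and its log2 difference of 0.15 became -0.011 without the male labelled knockout.

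In complex III the median was 0.202, and it ran from 0.083 to 0.300 with 1 library left out. Uqcrq read 2800 and 3223 in IMQ controls and 4071 and 3929 in IMQ labelled knockouts, again without overlap (log2 difference 0.41, SE 0.13, limma adjusted p = 0.148). Uqcrfs1, the Rieske iron-sulfur protein, and Uqcrc2, a core protein, had log2 differences of 0.30 and 0.24 (limma adjusted p = 0.248 and 0.243), and neither overlapped between the groups.

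In complex IV, Cox5a and Cox5b encode nuclear subunits found in every tissue. Cox5b read 2421 and 2851 in IMQ controls and 3287 and 3377 in IMQ labelled knockouts (log2 difference 0.34, limma adjusted p = 0.159). Cox5a read 923 and 1050 in IMQ controls and 1243 and 1246 in IMQ labelled knockouts (log2 difference 0.34, limma adjusted p = 0.182). For both genes the groups stood apart in both sexes.

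In complex V, Atp5md, which encodes a small subunit of the membrane part, read 2065 and 2732 in IMQ controls and 3048 and 3607 in IMQ labelled knockouts (log2 difference 0.48, limma adjusted p = 0.166), and its difference was 0.28 without the female IMQ control. The catalytic gene Atp5b read 24710 and 26650 against 31980 and 31700 (log2 difference 0.31, limma adjusted p = 0.212). Atp5f1, of the peripheral stalk, had a log2 difference of 0.28 (limma adjusted p = 0.215). None of these 3 genes overlapped between the groups.

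A few members went the other way under IMQ, and Ndufa4l2 stood far from all others. Ndufa4l2 is a relative of Ndufa4 that is known to be induced by hypoxia-inducible factor and to lower respiration. Its normalised counts were 2143 (female) and 1952 (male) in IMQ controls and 509 and 943 in IMQ labelled knockouts. Both labelled knockouts lay below both controls. The log2 difference was -1.56 (SE 0.26, limma adjusted p = 0.0605), at -2.07 between the females and -1.05 between the males. It missed the threshold in this fit and in edgeR on recovered reads, without and with sex as a block (adjusted p = 0.0778 and 0.0509). It passed in limma with that block (adjusted p = 0.0401) and in DESeq2 (adjusted p = 1.78e-05). With 1 library left out the difference ran from -1.12 without the female labelled knockout to -2.01 without the male one. Without the female IMQ control it was -1.49. Each of these fits leaves a single library in 1 group, with no spread of its own, so only the differences are given. At rest Ndufa4l2 read 3448 and 3154 in controls and 2900 and 2470 in labelled knockouts, a log2 difference of -0.30 (limma adjusted p = 1.00). The difference between the IMQ and the untreated genotype effect was -1.26 (limma adjusted p = 0.476), so the effects were not shown to differ. The gene lies on chromosome 10, from 127514967 to 127517154 on the plus strand (GRCm38), and no 50-base window of it was found in another gene.

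Cox7a2l, also called SCAF1, links complexes III and IV into supercomplexes. It read 4348 and 3784 in IMQ controls and 2646 and 3543 in IMQ labelled knockouts. The groups did not overlap, but the male labelled knockout lay close to the male control: the pairs differed by -0.72 (female) and -0.095 (male), with a log2 difference of -0.41 (limma adjusted p = 0.220) that was -0.20 without the female labelled knockout. Ndufv3, an accessory subunit of the NADH-oxidising arm, was the third member lower at an unadjusted p under 0.05. It read 998 and 832 against 652 and 727, a log2 difference of -0.40 (limma adjusted p = 0.189). Its 2 groups did not overlap either.

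**Figure D2:**
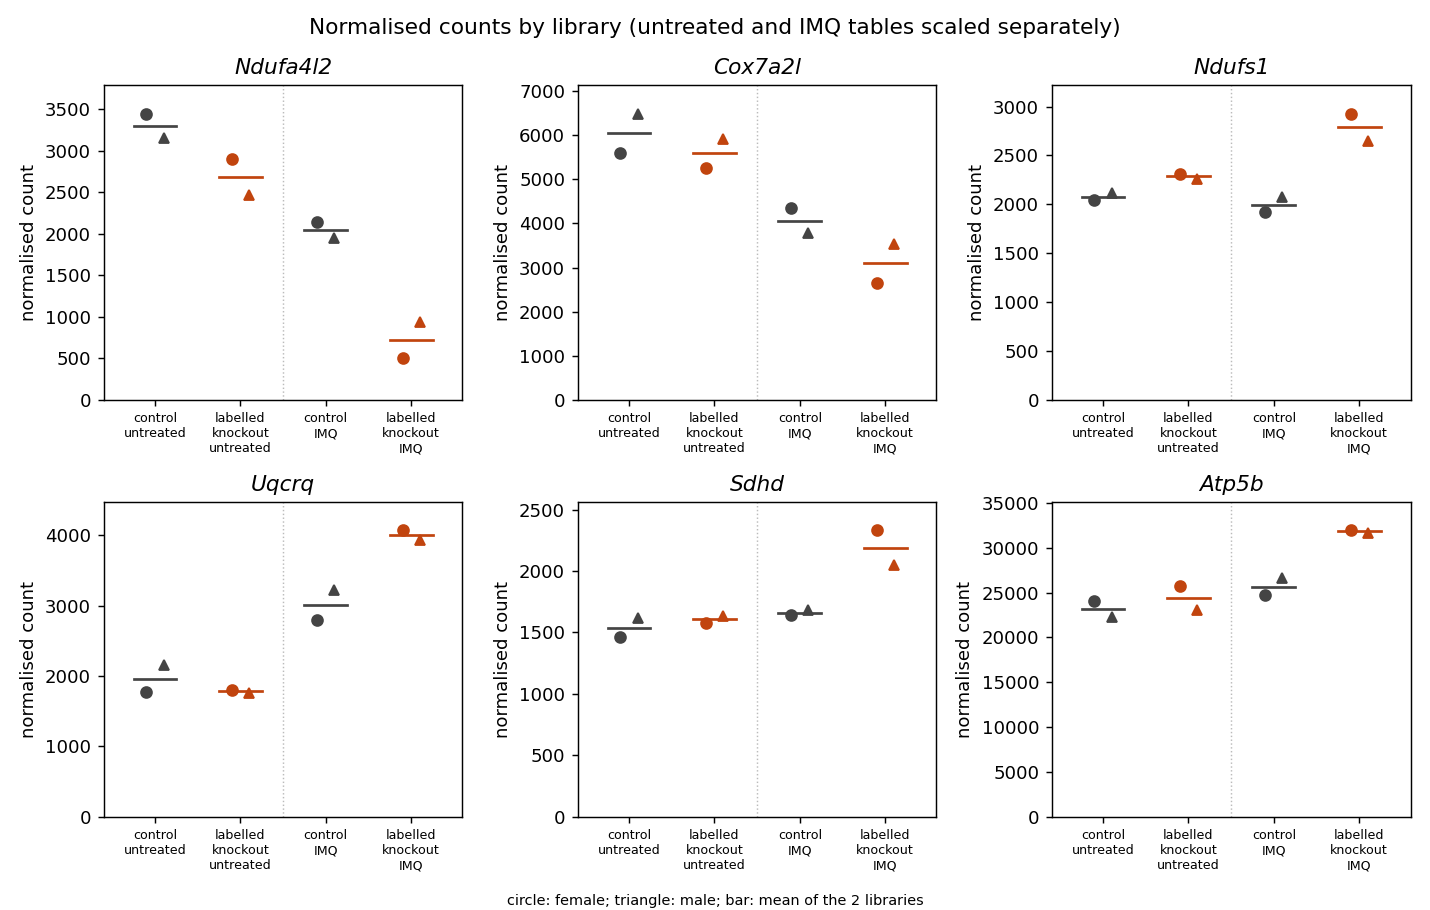
Normalised counts of 6 members in each library (circle female, triangle male, bar the mean of 2; black controls, red labelled knockouts), with the y axes starting at 0; the untreated and IMQ tables were scaled separately. In the IMQ groups Ndufa4l2 and Cox7a2l are lower in both labelled knockouts, and Ndufs1, Uqcrq, Sdhd and Atp5b are higher in both.

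The difference of the genotype effects, IMQ minus untreated, was positive for 65 of 81 members (80.2%, beside 47.3% of all genes), with a median of 0.201 against -0.028 over all genes. Limma called 0 members, and 0% of all genes in either direction, with or without sex as a block. EdgeR also called 0 members and 0% of all genes, and DESeq2 called 0 members beside 0.253% of all genes higher and 0.424% lower. At an unadjusted p under 0.05 there were 3 members higher (3.7%, beside 4.05% of all genes) and 1 lower (1.23%, beside 6.02%). The effects of the members were therefore not shown to differ between treatments one by one.

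Promoter sequences were examined because the medians of all 5 complexes had 1 sign under IMQ. RefSeq promoters (GRCm38.p6) were found for 68 of 84 members, and the 250 bases before the start were searched on both strands. None of the motifs searched contains another. The core letters of the NRF1 motif, CGCATGCG, stood before 7 members (10.3%, against 1.75% of 27025 genes with a promoter), and the ETS letters bound by GABP, CCGGAAG, before 12 (17.6%, against 7.83%). The YY1 letters AAGATGGCG stood before 1 member (1.47%, against 0.71%), the hypoxia response letters ACGTG before 14 (20.6%, against 18.5%) and the OVO letters CCGTTA before 2 (2.94%, against 2.52%), Atp5g3 and Ndufb2. These are matches of letters and not sites. The genotype effect under IMQ had a median of 0.196 in the 12 tested members with the ETS letters and 0.147 in the 55 tested without them. For the NRF1 letters it was 0.141 in the 7 with and 0.161 in the 60 without them. For the hypoxia response letters it was 0.198 in the 13 tested with and 0.147 in the 54 without them. For the OVO letters it was 0.241 in the 2 with and 0.148 in the 65 without them. The 1 member with the YY1 letters stood at 0.148, against 0.154 in the 66 without them. A link between any motif and the genotype effect was not tested. Sequences are given 5′ to 3′ on the strand of the gene for Ndufb6, which was higher in the IMQ labelled knockouts, for Cox6a1, which holds the NRF1 letters, and for Cox7a2l, which was lower and holds none of the 5 motifs. Capitals mark the motif letters, read on either strand.
Ndufb6: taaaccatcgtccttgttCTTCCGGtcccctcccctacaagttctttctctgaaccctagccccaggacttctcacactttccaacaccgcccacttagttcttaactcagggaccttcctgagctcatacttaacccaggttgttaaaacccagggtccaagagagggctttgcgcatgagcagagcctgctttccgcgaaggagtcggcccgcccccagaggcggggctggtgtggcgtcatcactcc
Cox6a1: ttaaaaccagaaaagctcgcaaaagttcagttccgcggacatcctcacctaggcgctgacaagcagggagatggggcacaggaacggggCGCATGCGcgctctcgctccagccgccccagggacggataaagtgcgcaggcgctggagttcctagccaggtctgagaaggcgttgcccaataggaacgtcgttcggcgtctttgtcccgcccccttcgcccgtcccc
Cox7a2l: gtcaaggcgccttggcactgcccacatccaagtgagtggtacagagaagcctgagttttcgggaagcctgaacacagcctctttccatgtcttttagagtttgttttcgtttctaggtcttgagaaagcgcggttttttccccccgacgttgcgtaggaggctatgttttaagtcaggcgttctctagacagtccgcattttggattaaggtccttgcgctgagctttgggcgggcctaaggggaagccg

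All 3 lie on the minus strand. The Ndufb6 window is chr4:40279422-40279671, in no annotated gene, and its ETS letters begin 232 bases before the start. The Cox6a1 window is chr5:115348982-115349208, with the 23 bases nearest the start left off because they lie in an annotated exon, and its NRF1 letters begin 161 bases before the start. A further match to the ETS letters of Cox6a1 lay in those 23 bases. The Cox7a2l window is chr17:83514334-83514583, in an intron of a longer annotated transcript of the gene.

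Between untreated and IMQ epidermis the members were mostly higher in IMQ, in controls and labelled knockouts alike. These levels are CPM, reads scaled to an equal library total, with TMM factors (trimmed mean of M-values) over the 8 libraries, compared as log2 of CPM plus 0.5, and were not tested because the tables were scaled separately. The IMQ controls enter both this comparison and the genotype comparison, as do the other groups, so the values are given side by side. The difference was positive for 70 of 81 members in the controls (86.4%, beside 51.5% of all genes; median 0.319, all genes 0.022) and for 74 in the labelled knockouts (91.4%, beside 49.3%; median 0.562, all genes -0.013). In the controls both IMQ libraries lay above both untreated ones for 59 members and below them for 5 (72.8% and 6.17%, beside 35.3% and 32.3% of all genes). In the labelled knockouts this held for 68 and 5 (84% and 6.17%, beside 39.9% and 40.1%). All 4 IMQ libraries lay above all 4 untreated ones for 55 members, 67.9%, beside 27.1% of all genes. They lay below them for 1 member, Cox7a1 (1.23%, beside 23.7%). The 55 comprised 24 of complex I, 2 of complex II, 7 of complex III, 10 of complex IV and 12 of complex V. Other housekeeping lists were also higher in IMQ. All IMQ libraries lay above all untreated ones for 62 of 77 mitochondrial ribosomal protein genes (medians 0.588 in controls, 0.911 in labelled knockouts). The same held for 31 of 38 proteasome genes (0.647 and 0.904) and 51 of 83 cytosolic ribosomal protein genes (0.294 and 0.473). The rise was therefore not limited to the members, which were not tested against these lists. On the normalised counts as deposited, without a common scaling, the medians of the members were 0.05 and 0.263, with all genes at -0.257 and -0.319. There, 20 members lay above and 9 below (24.7% and 11.1%, beside 15.5% and 37% of all genes).

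The largest difference from untreated to IMQ was that of Cox4i2, a complex IV isoform best known from lung (chromosome 2, 152754173 to 152765037, plus strand). It passed the filter on low values only through its IMQ libraries, so the group where it is high put it among the tested members. It is also counted among the members with all IMQ libraries above all untreated ones. It had 6.05 and 14.0 normalised counts in the untreated controls and 4.14 and 5.15 in the untreated labelled knockouts. Under IMQ it had 152 and 219 in controls and 100 and 127 in labelled knockouts. All IMQ libraries were therefore high and all untreated ones close to 0, with log2 differences of 3.09 in controls and 2.75 in labelled knockouts. At such low levels the added 0.5 lowers these values: the ratio of mean CPM, IMQ to untreated, was 22.5 in controls and 30.3 in labelled knockouts, which reverses their order. In each treatment both labelled knockouts lay below both controls (limma adjusted p = 1.00 untreated and 0.393 under IMQ). The widely expressed partner Cox4i1 differed by 0.31 and 0.50 between treatments. Ndufa4 differed by 1.28 in controls and 1.34 in labelled knockouts, and Uqcrq by 0.90 and 1.46.

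On the lower side stood the isoforms Cox7a1, of heart and skeletal muscle, and Cox6b2, of testis, and Ndufa4l2. Cox7a1 read 64.8 and 58.0 in untreated controls, 99.5 and 58.7 in untreated labelled knockouts, 20.2 and 14.8 in IMQ controls and 15.9 and 21.9 in IMQ labelled knockouts. Every IMQ library lay below every untreated one, by -1.01 in controls and -1.19 in labelled knockouts. The female IMQ control, with the most muscle marker RNA, was not the highest of the IMQ libraries for Cox7a1, but it was for the muscle isoforms Cox6a2 and Cox8b, at 18.4 and 17.4 against 0.994 to 1.90 and 1.99 to 5.71. Cox6b2 differed by -0.47 and -0.86, but its IMQ and untreated libraries overlapped and it had only 8 to 65 reads per library. Ndufa4l2 differed by -0.41 in controls and by -1.62 in labelled knockouts.

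**Figure D3:**
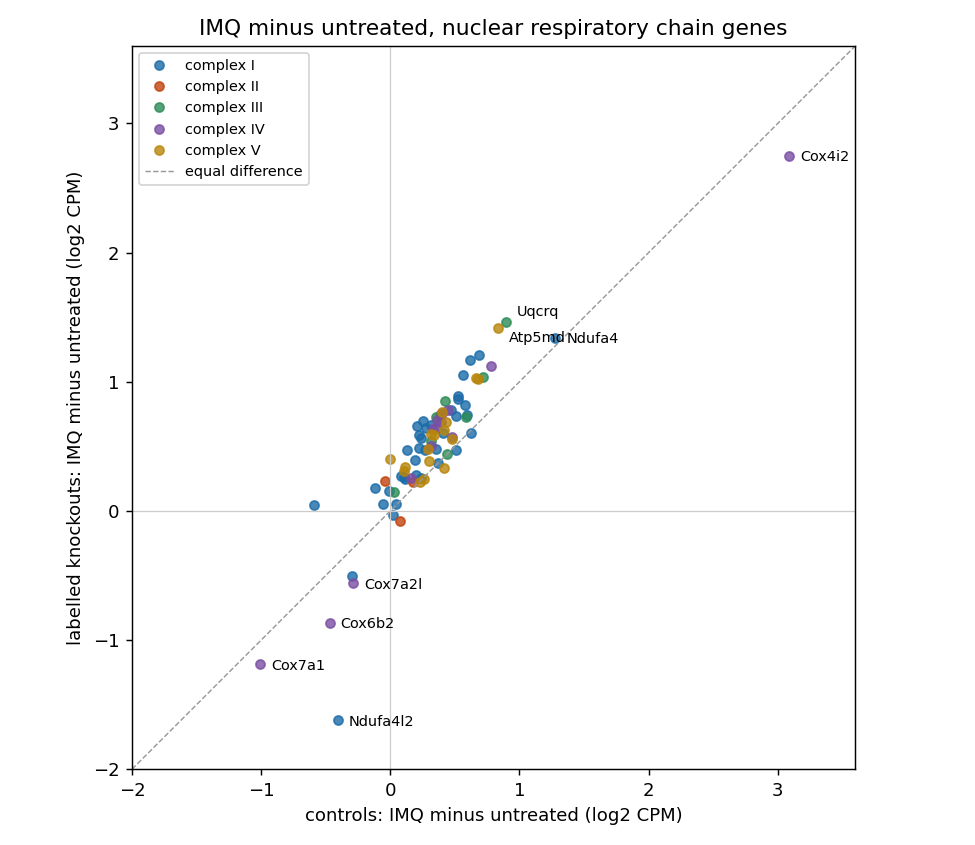
Each point is 1 of the 81 tested members, with the IMQ minus untreated difference in log2 CPM in the controls on the x axis and in the labelled knockouts on the y axis, coloured by complex; the dashed line marks equal differences. Most points lie above 0 on both axes, Cox4i2 lies at the upper right (3.09 and 2.75) and Ndufa4l2 lies well under the dashed line (-0.41 and -1.62).

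Isoform shares within a library do not depend on how libraries are scaled. As a share of reads per base of the pair, Ndufa4l2 made up 35.9% and 21.3% of Ndufa4l2 plus Ndufa4 in the untreated controls (female, male), 22.9% and 18.8% in the untreated labelled knockouts, 13.3% and 8.70% in the IMQ controls and 2.71% and 3.78% in the IMQ labelled knockouts. The 4 IMQ libraries lay below the 4 untreated ones, and the IMQ labelled knockouts lay below the IMQ controls. Cox4i2 made up 0.0762% to 0.227% of Cox4i2 plus Cox4i1 in the untreated libraries, 2.51% and 3.63% in the IMQ controls and 1.63% and 1.81% in the IMQ labelled knockouts. Cox7a1 made up 2.41% to 4.97% of Cox7a1 plus Cox7a2 in the untreated libraries and 0.596% to 0.984% under IMQ, where the genotypes overlapped. The pericyte and smooth muscle markers Kcnj8 and Abcc9, of cells that also express Cox4i2 and Ndufa4l2, stood at 0 to 10 normalised counts in every library. The summed level of the 9 listed pericyte and smooth muscle markers, mostly Notch3, was 5934 to 7348 untreated and 3015 to 3572 under IMQ. Without Notch3 the sum was 1165 to 1499 untreated, 1406 and 1073 in IMQ controls and 1147 and 892 in IMQ labelled knockouts. In the IMQ genotype contrast 0 of the 7 tested markers were positive (median -1.28, at -2.01 between the females and -0.36 between the males), and for 4 both labelled knockouts lay below both controls. At an unadjusted p under 0.05, 3 were lower and 0 higher, and limma called 0. The part of these cells in the shares, and in the lower Ndufa4l2 and Cox4i2 values of the IMQ labelled knockouts, was not tested.

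**Figure D4:**
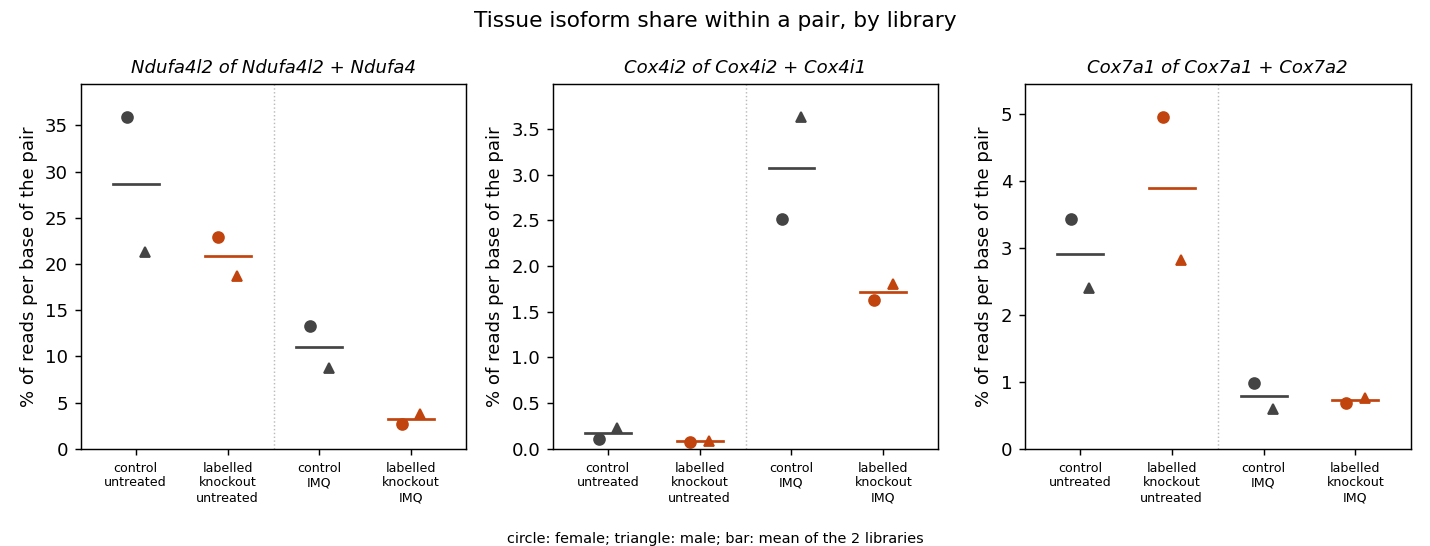
Share of reads per base taken by Ndufa4l2, Cox4i2 and Cox7a1 within the pair with their widely expressed partner, per library (circle female, triangle male, bar the mean of 2; black controls, red labelled knockouts). Ndufa4l2 is lowest in the IMQ labelled knockouts (2.71% and 3.78%), Cox4i2 is highest in the IMQ controls (2.51% and 3.63%), and Cox7a1 is lower in all IMQ libraries.

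Shares of reads were then compared between the nuclear members and the subunits encoded in mtDNA. Nuclear members took 0.566% to 0.641% of reads in untreated libraries, 0.727% and 0.742% in IMQ controls, and 0.808% and 0.836% in IMQ labelled knockouts, with no overlap between these 3 ranges. Proteasome genes rose in the same steps, at 0.3168% to 0.3495%, then 0.4974% and 0.5074%, then 0.5873% and 0.5782%. So did mitochondrial ribosomal protein genes, at 0.1229% to 0.1432%, then 0.1887% and 0.1999%, then 0.2415% and 0.2271%. Cytosolic ribosomal protein genes overlapped between the IMQ genotypes, at 6.936% and 6.656% in controls and 6.283% and 7.129% in labelled knockouts. The 13 mtDNA-encoded genes took 1.44% to 1.98% in untreated libraries, 1.70% and 2.12% in IMQ controls, and 1.12% (female) and 1.97% (male) in IMQ labelled knockouts. In each group the female library was the lower, and the groups overlapped. Reads from mtDNA genes per nuclear member read were 2.498 to 3.081 untreated, 2.34 and 2.85 in IMQ controls, and 1.39 and 2.36 in IMQ labelled knockouts. Of the 11 mtDNA genes tested, 0 were called in the IMQ genotype contrast (0 at an unadjusted p under 0.05; 0.157% of all genes called higher and 0.281% lower). All 11 were negative there (median -0.339; female pair -0.586, male pair -0.146), and 10 were negative in both pairs. Without the female IMQ labelled knockout, which leaves 1 male against a female and a male control, 10 of 11 were positive with a median of 0.129. Libraries were made from polyadenylated RNA, and the part of poly(A) selection in these shares was not tested.

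**Figure D5:**
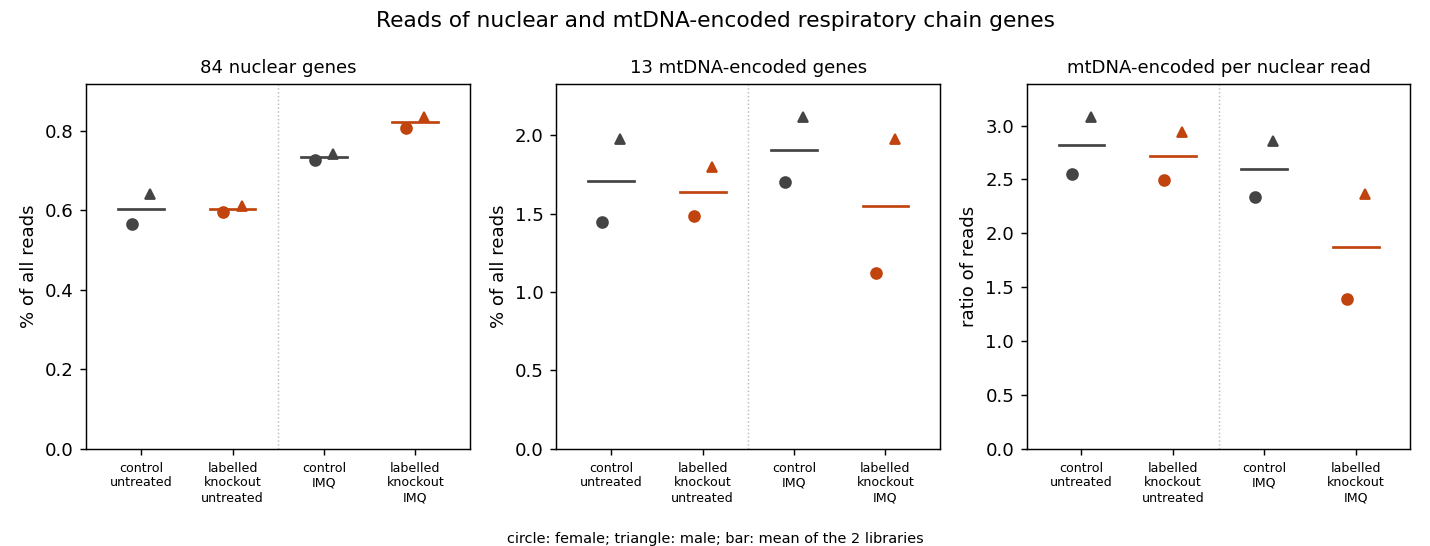
Share of all reads taken by the 84 nuclear members (left) and by the 13 mtDNA-encoded genes (middle), and the ratio of the latter to the former (right), per library (circle female, triangle male, bar the mean of 2; black controls, red labelled knockouts). Nuclear shares step up from untreated to IMQ control to IMQ labelled knockout, while mtDNA shares overlap between groups. Proteasome and mitochondrial ribosomal protein genes, not drawn here, step up in the same order.

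Of the genes that build and serve the chain, Tmem177 passed the test. Tmem177 encodes a factor for the assembly of complex IV that acts on its mtDNA-encoded COX2 subunit. It read 514 and 932 in IMQ controls and 70.6 and 67.5 in IMQ labelled knockouts, a log2 difference of -3.31 (SE 0.33, limma adjusted p = 0.0221). At rest it read 1414 and 2212 in controls against 206 and 285 (log2 difference -2.86, limma adjusted p = 0.0634). The untreated difference passed the threshold when sex was a block (limma adjusted p = 0.0312), as it did in DESeq2 (adjusted p = 1.22e-13), and in edgeR it did not (adjusted p = 0.0801). The groups stood apart in both treatments. Without the female labelled knockout the IMQ difference was -3.34, resting on a single labelled knockout library. The other 22 complex IV assembly genes held 0 calls in either treatment, and 16 of the 23 were positive under IMQ (median 0.171).

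No other assembly gene was called. Of 15 complex I assembly genes 14 were positive under IMQ (median 0.152, 4 higher at an unadjusted p under 0.05). Ndufaf6 stood at 71.6 and 120 in IMQ controls against 195 and 193 in labelled knockouts (log2 difference 1.06, limma adjusted p = 0.140), and Ndufaf4 at 852 and 1136 against 2159 and 1478 (0.86, limma adjusted p = 0.127). Both groups of libraries stood apart for each of the 2 genes. The complex III factor Lyrm7, which helps to insert the Rieske protein, was lower, at 45.0 and 53.7 against 20.9 and 23.8 (-1.11, limma adjusted p = 0.149).

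Electron carriers and regulators gave no calls either. Cycs, which encodes cytochrome c, read 2465 and 3272 in IMQ controls and 4326 and 4518 in IMQ labelled knockouts (log2 difference 0.64, limma adjusted p = 0.0881). Coq8a, of ubiquinone synthesis, read 290 and 167 against 91.5 and 96.1 (-1.22, limma adjusted p = 0.0818). Both genes stood apart between groups, in opposite directions. Of the 21 carrier and exchange genes 17 were positive (median 0.188). Of 19 genes of the citric acid cycle and pyruvate dehydrogenase 13 were positive (median 0.189). Idh2, the mitochondrial NADP-dependent isocitrate dehydrogenase, was lower (-0.43, limma adjusted p = 0.115), and Dlst, of the oxoglutarate dehydrogenase complex, was higher (0.49, limma adjusted p = 0.123).

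Among 17 tested regulators of mitochondrial biogenesis, 14 were positive under IMQ (median 0.270). Ppargc1b, a coactivator of respiratory genes, read 88.1 and 88.0 in untreated controls, 151 and 133 in untreated labelled knockouts, 460 and 643 in IMQ controls and 1037 and 893 in IMQ labelled knockouts. The genotype difference was 0.68 untreated and 0.82 under IMQ (limma adjusted p = 0.778 and 0.103), and the groups did not overlap in either treatment. Its relative Ppargc1a stood lower in IMQ epidermis, at 8 to 18 normalised counts against 50 to 81 untreated. Tfam, the mtDNA transcription factor, and Nrf1 had log2 differences of 0.41 and 0.37 under IMQ (limma adjusted p = 0.171 and 0.192).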

How the data were processed

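Epidermis was freed from back skin with dispase, and polyadenylated RNA was made into stranded libraries read as 100-bp pairs, per the labels' protocols. The submitters' processing notes name the build mm10 and the tools STAR 2.5.2a, Trimmomatic 0.35, R 3.6.1 and DESeq2 1.24.0. The sources used here do not give the counter or annotation. The authors deposited a signal in 2 separately scaled tables, one per treatment: gene counts over a single scale factor for each library, called normalised counts here. In every library each value equalled a whole number of steps to within 0.001 read, and reads were recovered from the step. In the female IMQ labelled knockout that step is so close to 1 that a step and rounding are hard to tell apart, and the edgeR, DESeq2, TMM and read share values also use this library.

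Limma 3.58.1 in R 4.3.3 was fitted to log2 of the normalised count plus 1 for genes with a mean of at least 10 in either table (14614 of 16902), with 4 group means over 8 libraries (4 residual degrees of freedom), trend and robust moderation, and Benjamini-Hochberg adjustment over all genes at 0.05. The pipeline was tested on simulated data. Replicate numbers follow sex: deviations from group means correlated by sex between groups (0.145 to 0.463 over tested genes, 0.0744 to 0.394 without X and Y; -0.292 to 0.47 over members), so sex is a block in an alternative fit. Recovered reads were used for edgeR 4.0.16 and DESeq2 1.42.0 and for CPM with TMM factors and an added 0.5. Alternatives also covered a filter at a mean of 50 or none, pseudocounts of 5 and 0.5, TMM or quantile scaling, plain moderation, each table alone, and fits lacking 1 library, in which the spread of a group with a single library comes from the other groups. Positions, overlaps and principal transcripts are from GENCODE vM21 (GRCm38), which held 83 of the 84 members.

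Members and gene lists were chosen with earlier results of these data known. Named members are the 3 lowest unadjusted p per complex under IMQ and the lowest untreated, the 3 largest differences each way between IMQ and untreated, the highest and lowest per kb, and the tissue isoforms with their partners. Pathway genes are up to 3 per list at an unadjusted p under 0.05 with the largest change. Ndufv3, Atp5g3 and Ndufb2, the genes named for shared windows, the motifs, the promoters shown, the marker sum without Notch3 and the Cox4i2 CPM ratio were chosen after values were seen. Tables and plots were made with Python 3.11.15, numpy 2.4.6, pandas 2.3.3 and matplotlib 3.10.9.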

Additional observations from a re-analysis of the deposited data

How the results depend on the processing

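With 2 libraries per group and 4 residual degrees of freedom, small differences of single members could not be resolved, and p-values describe these libraries. With all libraries kept, the count of members called was 0 in all genotype contrasts under nearly all settings. Exceptions arose only under IMQ. DESeq2 called 3 there (Ndufs1 and Sdhd higher, Ndufa4l2 lower), beside 4% of all genes higher and 4.5% lower. Counts of calls in fits lacking 1 library are not given, because a group with a single library has no spread of its own. In the limma fit with sex as the replicate block, 1 was called (Ndufa4l2, lower), beside 0.588% of all genes higher and 1.86% lower. The block changed no other call of a member. The untreated median ranged from -0.127 to 0.054 with 1 library left out. The IMQ genotype median was 0.188 in DESeq2 and 0.068 to 0.242 with 1 library left out. For IMQ minus untreated, the median in controls was 0.289 with DESeq2 size factors, 0.26 as plain CPM, 0.05 on the deposited values and 0.213 to 0.386 with 1 library left out. In labelled knockouts it was 0.448 as plain CPM, 0.263 on the deposited values and 0.43 to 0.58 with 1 library left out. Members with all IMQ libraries below all untreated ones numbered 2 with DESeq2 size factors (24.6% of all genes) and 3 as plain CPM (26.9%). On the deposited values they numbered 9 (37%). With 1 library left out they numbered 1 to 5, beside 24.9% to 28.2% of all genes. Members above numbered 20 on the deposited values (15.5% of all genes). Sdhb under IMQ ranged from -0.011 to 0.306 with 1 library left out, and changed sign without the male labelled knockout. For members named by lowest p, 679 of the other values over all settings kept their direction and their side of the threshold. A further 5 passed it only in an alternative. No member passed in the main fit, and leaving out a library of the other treatment cannot move a genotype difference. These counts therefore do not measure how stable the values are. The causes of these changes were not tested.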
